A study of Rattus norvegicus with 8 samples.

Results

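Lysosomal hydrolases, their helper proteins and lysosomal membrane proteins were followed in the fetal rat testis after maternal exposure to dibutyl phthalate (DBP), a plasticizer. The members came from a list of 40 genes, each represented by the probe set with a single gene symbol that had the highest mean over all 8 arrays. Of these, 38 had such a probe set and 2, Sgsh and Galns, were not analysed here, out of 14217 genes represented in the same way. The samples were testes of male Fischer 344 fetuses at gestational day 20, with 4 samples from dams given corn oil vehicle and 4 from dams given 50 mg/kg DBP in corn oil. All dams were gavaged daily from gestational day 12 to 20 with 1 ml/kg, and tissue was taken 6 h after the last dose. Each sample was hybridised to an Affymetrix rat expression array, and the values are log2 signals made by the authors with RMA, which summarises the probes of a probe set after background correction and quantile normalization. Whether samples came from separate litters is not said in the labels. The p-values thus speak of scatter among these 8 samples, which may be technical, and precision is limited by how few arrays there are.

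Lysosomes are acidic organelles in which hydrolases take apart glycosaminoglycans, sphingolipids, glycogen, glycoproteins and proteins that arrive by endocytosis, phagocytosis or autophagy. Most of the soluble enzymes reach them through mannose 6-phosphate receptors, while membrane proteins such as Lamp1 and Lamp2 coat the limiting membrane. In the testis, Sertoli cells and macrophages are rich in lysosomes, and Leydig cells use lysosomal lipases to free cholesterol for steroid synthesis.

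Array medians lay between 6.08 and 6.13 on the log2 scale, and correlations between arrays over all probe sets were 0.991 to 0.998. The tissue markers were at high signal, with vehicle means of 11.86 for Insl3 of Leydig cells and 12.67 for Amh of Sertoli cells. DBP replicates 3 and 4 stood apart. Their poly-A spike-ins, bacterial transcripts added before labelling, averaged 4.84 and 4.79 against 6.46 to 7.17 on the other 6 arrays. The signal of the 3′ hexokinase control probe set exceeded that of the 5′ one by 1.41 and 1.63 on these arrays and by 1.09 to 1.36 on the others. The same difference for the actin control did not set them apart, at 0.80 and 0.75 beside 0.62 to 0.92. Their RNA integrity numbers were 8.6 and 8.7, beside 8.7 to 8.8. Because of the spike-in and hexokinase values, results are also given for DBP replicates 1 and 2 alone and for replicates 3 and 4 alone. Each pair was set against the same 4 vehicle arrays.

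Of the members, 2 enzymes fell after DBP and 0 members rose. Naglu, an enzyme of heparan sulfate breakdown, fell 1.64-fold, and Arsa, the sulfatase that desulfates sulfatide and the testis lipid seminolipid, fell 1.21-fold. The other 36 members did not pass the test, with changes between -0.18 and 0.13 on the log2 scale. In limma's moderated test with Benjamini-Hochberg adjustment over 31042 probe sets, 2 of 38 members (5.26%) had an adjusted p under 0.05, against 1.22% of the 14217 represented genes (0.626% lower, 0.598% higher) and 1.07% of all probe sets. The members were chosen with earlier results of these data known, so such shares only describe the list and show no enrichment. Without adjustment 3 of 38 members (7.89%), all lower, had a p under 0.05, beside 19.1% of the represented genes (7.84% lower, 11.3% higher). Which of these shares is larger, and the sign of the members counted, depended on the setting. The setting called quantile normalization from here on applied that step again, to the RMA values of all probe sets. There the members numbered 9 (23.7%), 3 lower and 6 higher, beside 17.1% of all probe sets. With DBP replicates 1 and 2 alone they numbered 11 (28.9%), 5 lower and 6 higher, beside 15.8%. The median change of the members was -0.01, beside 0.02 for all represented genes, and 21 members were lower and 17 higher. With all arrays brought to a common median, the member median was 0.01, with 15 lower and 23 higher, so the direction of members near 0 depends on the scaling. Because the members came from whole testis, fewer cells of a type and less RNA per cell cannot be told apart.

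**Figure D1:**
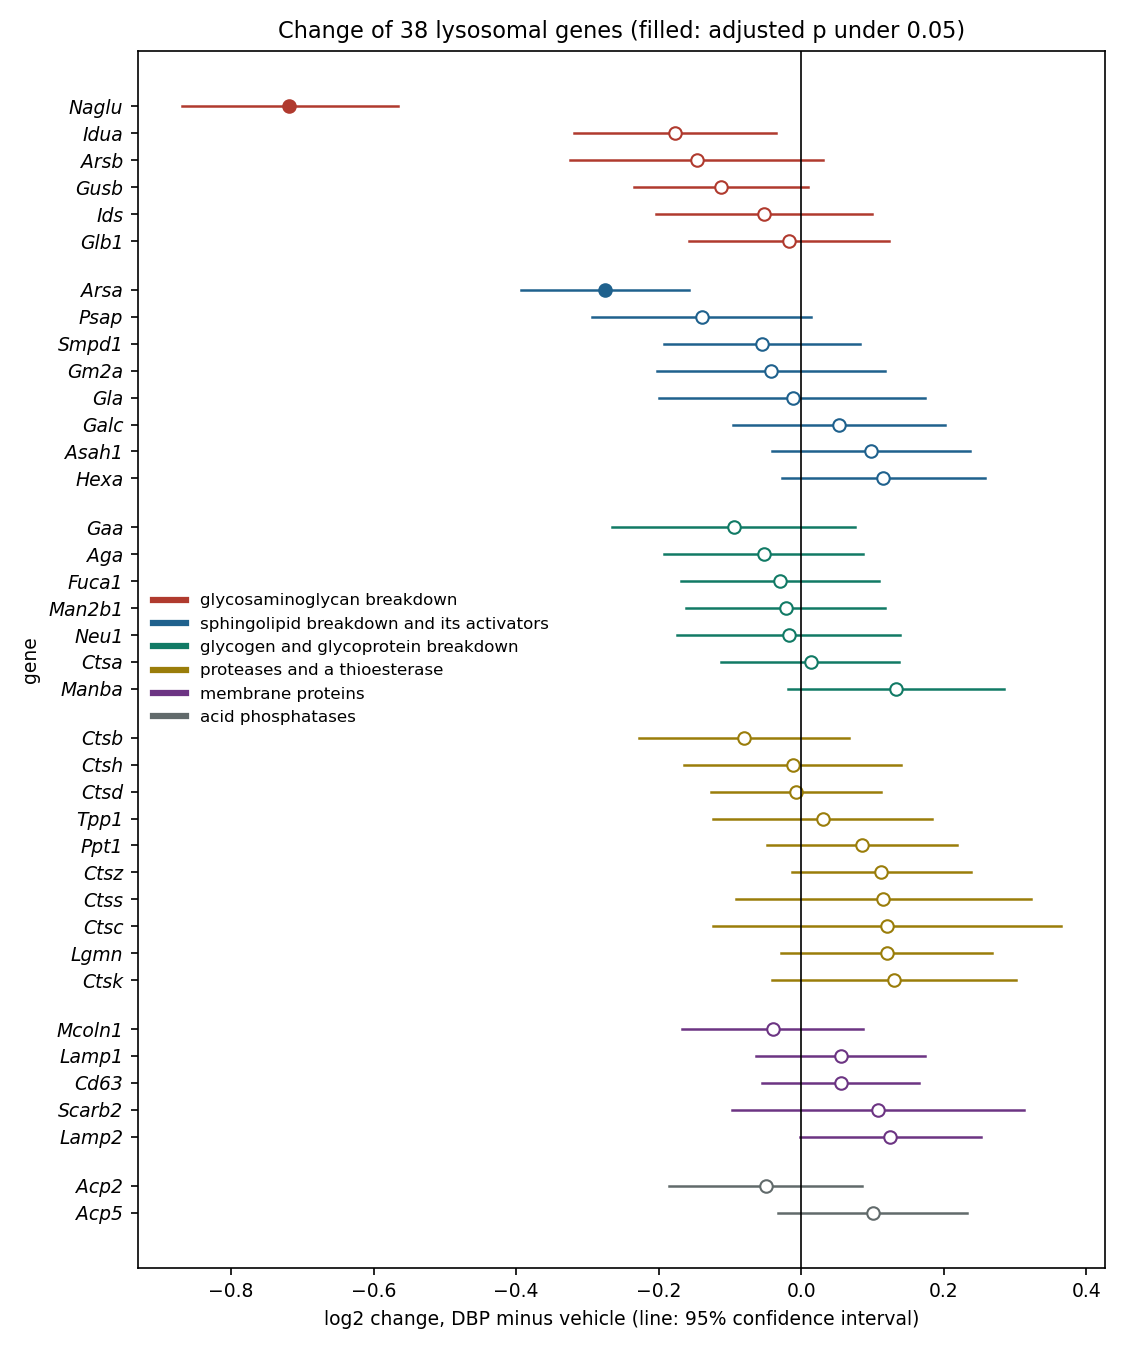
Log2 change of each of the 38 measured lysosomal genes, DBP minus vehicle, on the horizontal axis, with lines for the 95% confidence interval of the limma model and colours for the role of the gene. Only the filled points, Naglu at -0.72 and Arsa at -0.28, had an adjusted p under 0.05; the other 36 points lie between -0.18 and 0.13.

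Naglu encodes alpha-N-acetylglucosaminidase, which removes N-acetylglucosamine from the end of heparan sulfate chains and whose loss causes a mucopolysaccharidosis. Its log2 signals were 8.86, 8.89, 8.98 and 8.97 in vehicle replicates 1 to 4 and 8.36, 8.22, 8.13 and 8.12 in DBP replicates 1 to 4. Every DBP array lay below every vehicle array, and the gap between the groups was wider than the range within either. The mean fell from 8.93 ± 0.059 to 8.21 ± 0.11 (SD, n = 4 per group), a change of -0.72 ± 0.068 (SE; 95% confidence interval -0.87 to -0.57; adjusted p = 0.0016). The linear signal fell by 39.2%, and 8 of the 14217 represented genes had a more negative change. The change was -0.64 in DBP replicates 1 and 2 (adjusted p = 0.00594 in a limma fit of these and the vehicle arrays) and -0.80 in replicates 3 and 4 (adjusted p = 0.00403). Naglu had 1 probe set, so no other probe set of the gene could be compared with it.

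Arsa encodes arylsulfatase A. Its representing probe set read 8.19, 8.27, 8.28 and 8.22 in the vehicle arrays and 7.92, 7.98, 7.95 and 8.01 in the DBP arrays. The groups did not overlap, and the replicates of each group lay within 0.1 of each other. The mean fell from 8.24 ± 0.042 to 7.97 ± 0.039 (SD, n = 4 per group), a change of -0.28 ± 0.053 (SE; 95% confidence interval -0.39 to -0.16; adjusted p = 0.0416). The other probe set of Arsa, which was dimmer, read 7.84, 7.65, 7.79 and 7.84 in vehicle and 7.32, 7.44, 7.33 and 7.43 after DBP. It fell as well, by 0.40 on the log2 scale (adjusted p = 0.0176), again with no overlap, and the mean of both probe sets changed by -0.34 (adjusted p = 0.00826 in a limma fit of gene means). The change of the representing probe set was -0.29 in DBP replicates 1 and 2 (adjusted p = 0.0483) and -0.26 in replicates 3 and 4 (adjusted p = 0.0334). In these fits, also used for Naglu, 577 and 4129 of all probe sets passed, so their adjusted p-values are not directly comparable. The call was near the threshold: it was lost when vehicle replicate 1, 2, 3 or 4 was left out (adjusted p 0.103 to 0.161), without DBP replicate 1 (0.0853) or 3 (0.0809), with arrays shifted to the same median (0.0612), after quantile normalization (0.0714), with the RNA integrity number as covariate (0.0695) and with the replicate number as a block (0.104).

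**Figure D2:**
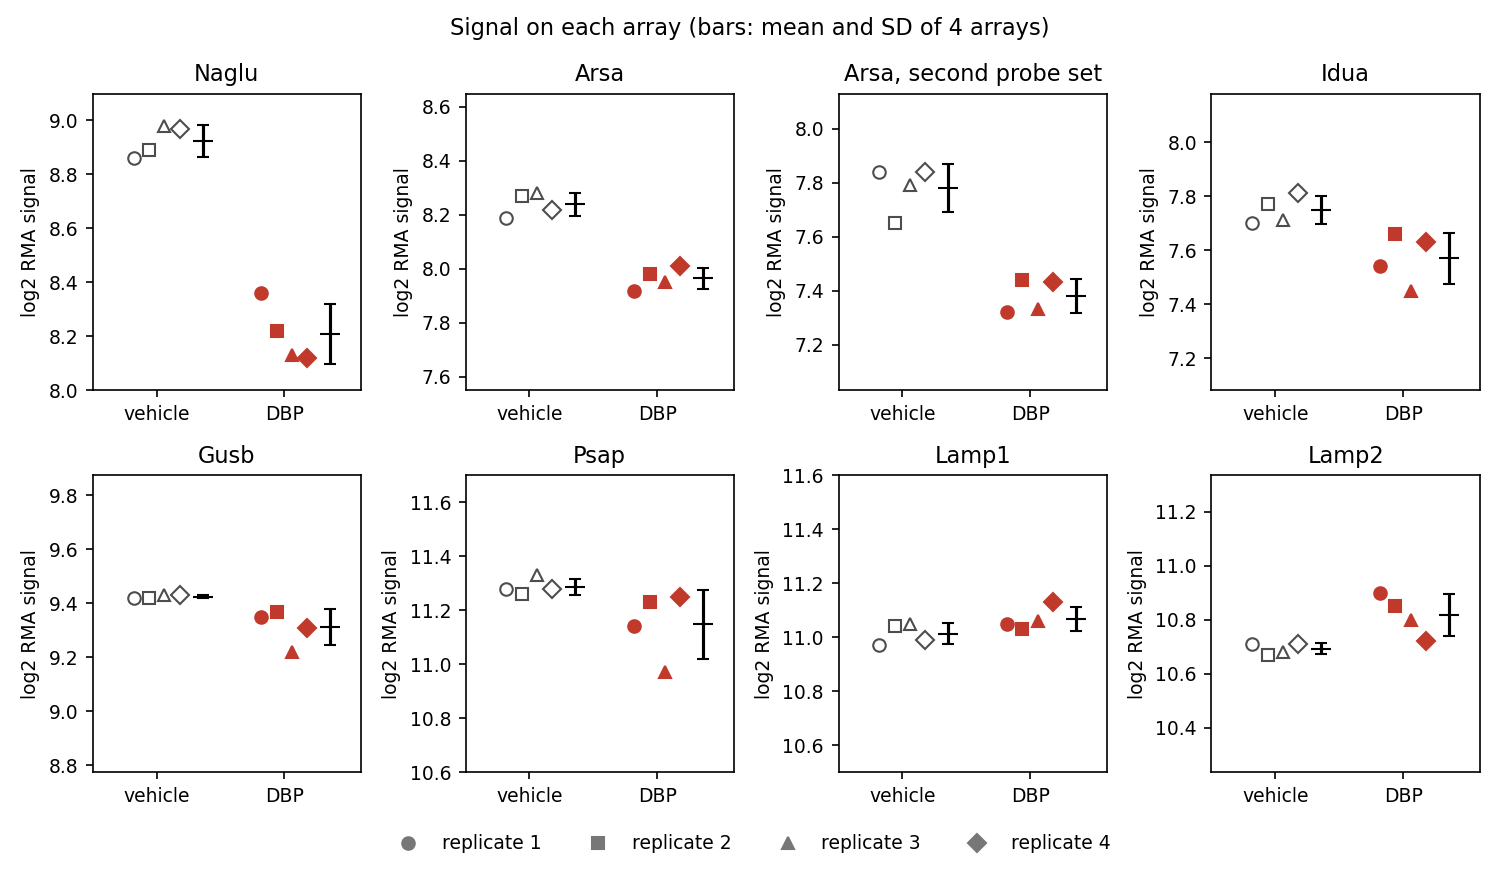
Log2 RMA signal on each array for 7 lysosomal genes and the other probe set of Arsa, with vehicle arrays as open and DBP arrays as filled symbols, symbol shapes for replicate numbers, and bars for the mean and SD of 4 arrays. All panels span the same height on the log2 scale; the drop is plain for Naglu and smaller for both Arsa probe sets, while Lamp1 stays near 11.0 with overlapping groups.

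Many lysosomal genes are known targets of TFEB and its relatives, basic helix-loop-helix factors that bind a palindrome called the CLEAR element, whose core reads TCACGTGA and contains the E-box CACGTG. Both were sought in the RefSeq promoter windows of build GRCr8, from 250 bases before to 50 after each gene's start; since both are palindromes, 1 search covers both strands. A window was found for 31 of the 38 members, Naglu included; Arsa had none. The core occurred in 4 of these 31 (12.9%), against 0.777% of all 33469 windows, and the E-box in 8 (25.8%), among them those 4, against 6.42%. The 4 were Lamp1, with 2 cores, Ctsd, Galc and Mcoln1, and the 4 with an E-box alone were Gaa, Glb1, Idua and Cd63. Neither string occurred in the window of Naglu. Members were counted by gene, but the background counted all windows, without limiting them to genes represented on the array. The 150 bases before the start are shown for Naglu, the member with the largest fall, and for the 3 genes whose core lies before the start, in lower case with the core in capitals.

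Naglu, chr10:86501714-86501863, plus strand: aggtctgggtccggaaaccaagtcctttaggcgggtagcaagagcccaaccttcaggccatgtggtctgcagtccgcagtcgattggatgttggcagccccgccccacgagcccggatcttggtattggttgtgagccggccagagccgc
Lamp1, chr16:83075064-83075213, minus strand: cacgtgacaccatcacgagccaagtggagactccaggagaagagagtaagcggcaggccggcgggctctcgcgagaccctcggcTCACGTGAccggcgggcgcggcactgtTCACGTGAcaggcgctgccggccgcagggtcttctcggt
Ctsd, chr1:206968822-206968971, minus strand: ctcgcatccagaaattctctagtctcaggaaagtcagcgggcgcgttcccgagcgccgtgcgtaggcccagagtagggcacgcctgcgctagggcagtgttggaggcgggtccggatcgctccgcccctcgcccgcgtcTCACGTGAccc
Galc, chr6:123245560-123245709, minus strand: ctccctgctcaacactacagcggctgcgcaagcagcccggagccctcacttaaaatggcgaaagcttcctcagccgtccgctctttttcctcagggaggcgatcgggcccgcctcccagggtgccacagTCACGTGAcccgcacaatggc

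The 4 genes with a core in the window changed by 0.06 (Lamp1), -0.01 (Ctsd), 0.05 (Galc) and -0.04 (Mcoln1), and 0 of them passed. A match is only a string of letters and was not tested for binding, and its absence from the Naglu window says nothing about sites elsewhere.

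The other measured members assigned to glycosaminoglycan breakdown were Ids, Idua, Arsb, Gusb and Glb1. Idua, the alpha-L-iduronidase that acts on heparan and dermatan sulfate, read 7.70, 7.77, 7.71 and 7.81 in vehicle and 7.54, 7.66, 7.45 and 7.63 after DBP. The groups did not overlap, but the margin between DBP replicate 2 and vehicle replicate 1 was only 0.04, and the change of -0.18 ± 0.064 (SE) had an unadjusted p of 0.0185 and an adjusted p of 0.195. Gusb, the lysosomal beta-glucuronidase, read 9.42, 9.42, 9.43 and 9.43 in vehicle, the tightest vehicle group of any member (SD 0.006), and 9.35, 9.37, 9.22 and 9.31 after DBP. All DBP arrays were thus lower, by -0.11 on average (95% confidence interval -0.23 to 0.01; adjusted p = 0.305). Arsb, which desulfates dermatan and chondroitin sulfate, changed by -0.15 (-0.33 to 0.03), with DBP replicate 3 lowest at 8.99 and DBP replicate 2, at 9.37, inside the vehicle range of 9.27 to 9.40. Ids, the iduronate sulfatase, changed by -0.05 (-0.20 to 0.10), and Glb1, the acid beta-galactosidase, by -0.02 (-0.16 to 0.12). All 6 measured genes of this group had a change below 0, where 42.7% of represented genes did, with a median of -0.13. Of the 6, 1 passed, Naglu, beside 1.22% of represented genes. Glb1 was above 0 with arrays shifted to the same median, after quantile normalization and in DBP replicates 1 and 2 alone. Outside the members, Hgsnat and Hyal2, which also act on glycosaminoglycans, changed by -0.06 and 0.03 (named after their values were seen). DBP replicates 1 and 2 gave this group a median of -0.06, and replicates 3 and 4 gave -0.18. The arrays of the second pair were those with low spike-in signal and larger 3′ over 5′ differences for hexokinase, though not for actin. The part of these array traits in the group's values was not tested.

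Beside Arsa, 7 genes of sphingolipid breakdown were measured. Psap, the precursor of the saposins that present sphingolipids to their hydrolases, among them sulfatide to arylsulfatase A, read 11.28, 11.26, 11.33 and 11.28 in vehicle and 11.14, 11.23, 10.97 and 11.25 after DBP. The groups did not overlap, yet DBP replicates 2 and 4 came within 0.03 of the lowest vehicle array and most of the change of -0.14 (-0.29 to 0.01; adjusted p = 0.312) lay in DBP replicate 3. Galc, the galactosylceramidase that acts after arylsulfatase A, changed by 0.05 (-0.10 to 0.20). Hexa, the alpha subunit of beta-hexosaminidase A, changed by 0.12 (-0.03 to 0.26), with 10.19 and 10.29 in DBP replicates 3 and 4, and 10.09 and 10.08 in replicates 1 and 2, against 9.99 to 10.11 in vehicle. Its activator protein gene Gm2a changed by -0.04 (-0.20 to 0.12). Gla, the alpha-galactosidase of globotriaosylceramide breakdown, changed by -0.01 (-0.20 to 0.17), and Smpd1, acid sphingomyelinase, by -0.06 (-0.19 to 0.08). Asah1, acid ceramidase, changed by 0.10 (-0.04 to 0.24), and its dimmer probe set by 0.19 without passing (unadjusted p = 0.026, adjusted p = 0.222). In this group 5 of 8 genes were lower, beside 42.7% of represented genes. With arrays shifted to the same median 4 of 8 were lower, where 64.3% of represented genes were higher. Arsa alone passed, beside 1.22% of represented genes.

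Of the 7 genes for glycogen and glycoprotein breakdown 0 passed, and 0 had an unadjusted p under 0.05 in limma, beside 1.22% and 19.1% of represented genes. Gaa, the acid alpha-glucosidase that clears lysosomal glycogen, changed by -0.10 (-0.27 to 0.08). Its DBP arrays read 9.24, 9.35, 9.34 and 9.60 against 9.44 to 9.52 in vehicle, so that DBP replicate 4 was the highest of all 8 and the other 3 DBP arrays were the lowest. The dimmer probe set of Gaa was lower in all 4 DBP arrays, by -0.24 on average (unadjusted p = 0.0124, adjusted p = 0.169). Manba, beta-mannosidase, had the largest positive change of any member, 0.13 (-0.02 to 0.28), with DBP values of 6.55 to 6.76 overlapping the vehicle values of 6.43 to 6.64. Ctsa, the protective protein that holds the sialidase Neu1 and Glb1 in a complex, changed by 0.01 (-0.11 to 0.14), and Neu1 itself, with a mean of 5.42 in vehicle, below the median of all probe sets, by -0.02 (-0.17 to 0.14). The changes of Aga (aspartylglucosaminidase), Fuca1 (alpha-fucosidase) and Man2b1 (alpha-mannosidase) were -0.05, -0.03 and -0.02.

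Of the proteases and the thioesterase Ppt1, 0 of 10 passed and 0 had an unadjusted p under 0.05 in limma, beside 1.22% and 19.1% of represented genes. Their changes were above 0 in 7 of 10, beside 57.3% of represented genes, and had a median of 0.10. With arrays shifted to the same median 9 of 10 were above 0, beside 64.3% of represented genes. Ctsz, the carboxypeptidase cathepsin X, read 8.36, 8.37, 8.28 and 8.40 in vehicle and 8.47, 8.41, 8.54 and 8.44 after DBP. The groups were separated by 0.01 only, and the change of 0.11 (-0.01 to 0.24) did not pass (adjusted p = 0.316). Ctss, the cathepsin of antigen-presenting cells, read 7.99, 8.18, 8.04 and 8.12 in vehicle and 8.27, 8.30, 8.31 and 7.91 after DBP. The first 3 DBP arrays were above all vehicle arrays and the fourth below them, which gave 0.12 (-0.09 to 0.32). Lgmn, the asparaginyl endopeptidase that activates cathepsins, read 9.50 in DBP replicates 1 and 2 and 9.26 and 9.38 in replicates 3 and 4, against 9.27 to 9.34 in vehicle. Ctsc, the dipeptidyl peptidase that activates granule proteases, had the widest interval of the members, 0.12 (-0.12 to 0.36), with a vehicle SD of 0.16.

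Ctsk, best known from osteoclasts, changed by 0.13 (-0.04 to 0.30), and Ppt1, the thioesterase that removes palmitate from proteins, by 0.09 (-0.05 to 0.22). Tpp1, a tripeptidyl peptidase, changed by 0.03. The broadly acting Ctsd, Ctsh and Ctsb changed by -0.01, -0.01 and -0.08. In DBP replicates 1 and 2 alone all 10 protease and thioesterase genes were higher (median 0.10), beside 57.0% of represented genes, and in replicates 3 and 4 alone 6 of 10 were (median 0.02), beside 54.6%. Among 18 macrophage markers 16 were higher, beside 57.3% of represented genes, and 2 were lower, with a median of 0.10. Past the test were 0 of 18, and 3, all higher, had an unadjusted p under 0.05, beside 19.1% of represented genes. The summed linear signal of the 18 markers was 2574 to 2781 in the vehicle arrays. It was 3122, 2753, 2977 and 2768 in DBP replicates 1 to 4, so replicates 2 and 4 lay inside the vehicle range. The 3 were Fcer1g at 0.27, Aif1 at 0.26 and Cd74 at 0.24, and the 2 lower markers were Adgre1 at -0.10 and Cd14 at -0.03 (these and the next 2 genes were named after their values were seen). Csf1r changed by 0.09 and Cd68 by 0.03, with 0.21 and 0.08 in DBP replicates 1 and 2 and -0.03 and -0.02 in replicates 3 and 4. Fcer1g, Aif1 and Cd74 did not share this split. They changed by 0.27, 0.21 and 0.15 in DBP replicates 1 and 2 and by 0.27, 0.32 and 0.33 in replicates 3 and 4. In DBP replicates 1 and 2 alone 16 of 18 markers were higher, and in replicates 3 and 4 alone 12 were. The part of macrophage content in the protease values was not tested.

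Membrane proteins showed small changes. Lamp1, a main glycoprotein of the lysosomal membrane, read 10.97, 11.04, 11.05 and 10.99 in vehicle and 11.05, 11.03, 11.06 and 11.13 after DBP. The groups overlapped, and the change of 0.06 ± 0.053 (SE) had a 95% confidence interval of -0.06 to 0.17, so that a change beyond 0.17 in either direction lay outside it. Both other probe sets of Lamp1 were dim, with vehicle means of 4.28 and 3.82. The brighter of them changed by 0.14 without overlap (unadjusted p = 0.0477, adjusted p = 0.27) and the other by -0.08 (adjusted p = 0.487). Lamp2, its relative with a role in chaperone-mediated autophagy, read 10.71, 10.67, 10.68 and 10.71 in vehicle and 10.90, 10.85, 10.80 and 10.72 after DBP. All 4 DBP values were higher, the fourth by 0.01 over the highest vehicle array, and the change was 0.13 (-0.002 to 0.25; unadjusted p = 0.0529, adjusted p = 0.28), while the other probe set of Lamp2 gave -0.01 with overlapping groups. Cd63, a tetraspanin of late endosomes, read 11.52, 11.54, 11.51 and 11.51 in vehicle and 11.57, 11.56, 11.61 and 11.56 after DBP. These groups did not overlap either, but the change was 0.06 (adjusted p = 0.566). Scarb2, the receptor that carries glucocerebrosidase to lysosomes, changed by 0.11 (-0.10 to 0.31) with DBP replicate 4 at 7.30 and DBP replicate 3 at 6.81, above and below all vehicle arrays, and Mcoln1, the lysosomal calcium channel, by -0.04. Of the acid phosphatases, Acp5, the tartrate-resistant form of osteoclasts and macrophages, changed by 0.10 (-0.03 to 0.23) and Acp2 by -0.05 (-0.18 to 0.09).

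**Figure D3:**
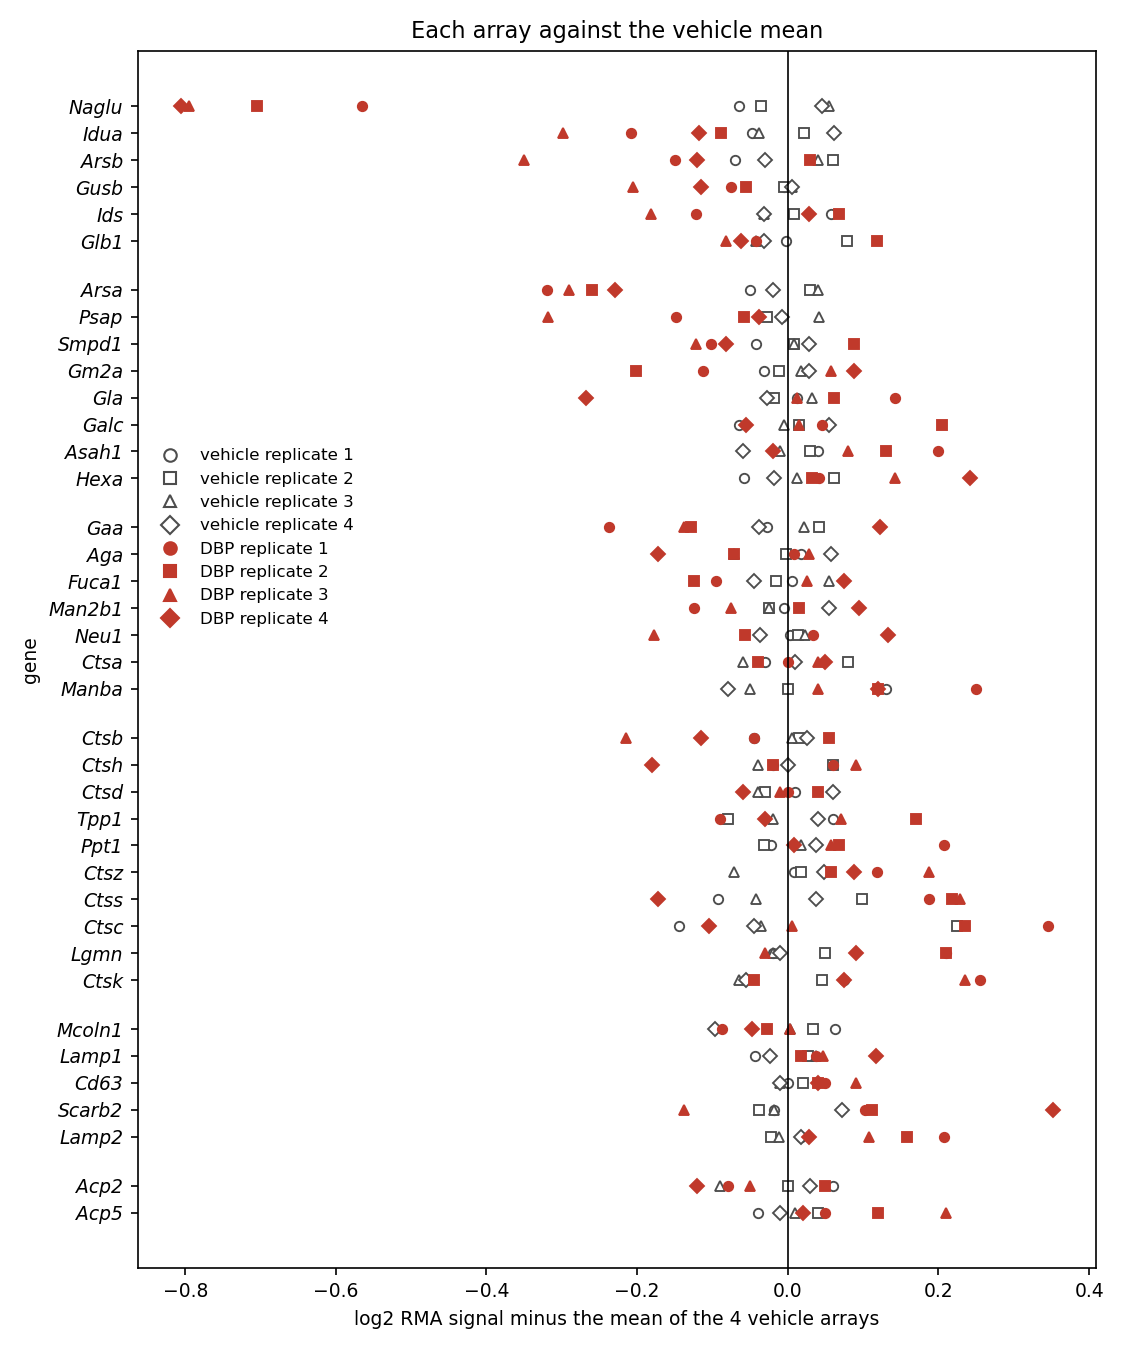
Log2 RMA signal of each array minus the mean of the 4 vehicle arrays, for each of the 38 lysosomal genes, with open symbols for vehicle and filled symbols for DBP arrays and symbol shapes for replicate numbers. The DBP symbols spread wider than the vehicle symbols in most rows, and Naglu and Arsa are the rows in which all DBP arrays lie more than 0.2 below the vehicle mean.

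In all, the groups did not overlap for 8 of 38 members (21.1%), 5 with DBP lower (Naglu, Arsa, Idua, Gusb and Psap) and 3 with DBP higher (Lamp2, Ctsz and Cd63), against 12.9% of the represented genes (5.56% lower, 7.31% higher). Replicates scattered more in the DBP group, which holds replicates 3 and 4, the arrays set apart by their spike-ins. The part of these arrays in the wider scatter was not tested. The SD over 4 arrays was larger in the DBP group than in the vehicle group for 33 of 38 members (86.8%), as it was for 79.9% of represented genes, and its median rose from 0.0443 to 0.0969 among the members and from 0.0656 to 0.119 among all represented genes. DBP replicate 3 was the lowest of all 8 arrays for 11 members (28.9%), ties included, against 18.3% of represented genes. The 36 members that did not pass had 95% confidence intervals between -0.33 and 0.36, which bounds their changes to linear ratios of 0.798 to 1.29, and for 35 of them the interval held 0, Idua being the exception.

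Genes that act with the hydrolases were described from 5 lists, in which 0 genes passed limma's test, beside 1.22% of represented genes. Of 27 measured other lysosomal enzymes and lipid carriers, 8 had an unadjusted p under 0.05 (4 of each sign), beside 19.1% of represented genes. The list median was -0.03. The smallest p belonged to Lipa, the acid lipase that frees cholesterol from its esters, whose arrays read 9.40, 9.30, 9.33 and 9.43 in vehicle and 9.72, 9.55, 9.54 and 9.78 after DBP. The DBP arrays were all higher, by 0.28 (unadjusted p = 0.00235, adjusted p = 0.096). Next came Ctns, the cystine exporter, at 0.21 (adjusted p = 0.125), again without overlap.

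The vacuolar ATPase pumps protons into the lysosome. Of its 17 subunit genes 14 were higher, beside 57.3% of represented genes, and the median was 0.07. After quantile normalization 14 were higher, beside 59.7% of represented genes, and with arrays shifted to the same median 15, beside 64.3%. An unadjusted p under 0.05 was seen for 3, all higher, beside 19.1% of represented genes (11.3% higher). Atp6v1f, of the catalytic sector, read 10.11, 10.07, 10.07 and 10.09 in vehicle and 10.30, 10.21, 10.45 and 10.32 after DBP. These groups were well separated, with a change of 0.24 ± 0.062 (SE; adjusted p = 0.108). Atp6v0b, of the membrane sector, changed by 0.22 (adjusted p = 0.117), also without overlap.

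In the list for delivery of enzymes to the lysosome 0 of 21 genes had an unadjusted p under 0.05, beside 19.1% of represented genes. Its median was -0.01. Igf2r, the large mannose 6-phosphate receptor, changed by -0.23 (unadjusted p = 0.0734, adjusted p = 0.317), with DBP replicate 3 lowest at 9.57, and Gnptab, which makes the mannose 6-phosphate tag, by -0.15 (adjusted p = 0.355). The next list held 14 genes for MiT factors, the TFEB family, and for mTORC1, the kinase complex that restrains them at the lysosome. Of these, 3 had an unadjusted p under 0.05, beside the same 19.1%. Mtor changed by -0.19 (adjusted p = 0.201) and Mitf by 0.27 (adjusted p = 0.236). Tfeb, named after its value was seen, changed by 0.14 (adjusted p = 0.375), with 7.64 and 7.74 in DBP replicates 3 and 4, and 7.40 and 7.44 in replicates 1 and 2, against 7.37 to 7.48 in vehicle. Among 14 autophagy genes an unadjusted p under 0.05 was found for 4, with 3 up and 1 down, again beside 19.1% of represented genes. The lower one was Wipi1, which binds phosphoinositides of the forming autophagosome, at -0.25 (adjusted p = 0.113), and Gabarap, which coats its membrane, changed by 0.19 (adjusted p = 0.172), neither with overlap.

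**Figure D4:**
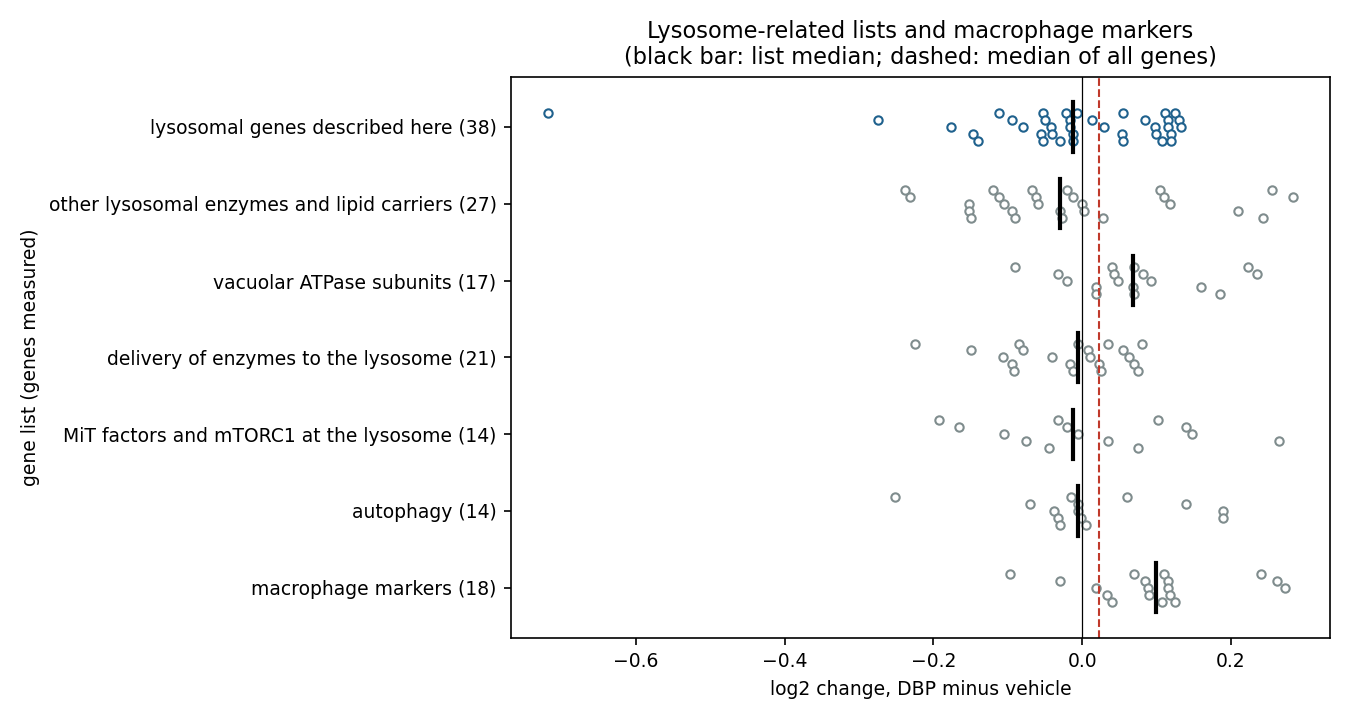
Log2 change, DBP minus vehicle, of every measured gene of the lysosomal genes described here, 5 related lists and the macrophage markers, with a black bar at each list's median and a dashed line at 0.02, the median of all represented genes. The vacuolar ATPase subunits (median 0.07) and macrophage markers (0.10) lie mostly to the right of 0, and Naglu at -0.72 is the point farthest to the left.

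Summed linear signals of the marker lists for other cells were compared for the same arrays. Over all represented genes 57.3% were higher. Of the Leydig cell markers 4 of 8 were higher (median -0.01), of the Sertoli cell markers 3 of 8 (median -0.03) and of the erythroid markers 9 of 9 (median 0.28). Leydig cell markers summed to 25761 to 27203 in vehicle and 24550 to 27933 after DBP, and Sertoli cell markers to 16117 to 16922 and 14467 to 16728. Erythroid markers summed to 24009 and 24216 in DBP replicates 1 and 2 and to 19920 and 21273 in replicates 3 and 4, against 19454 to 22062 in vehicle. Among represented genes 1.22% passed and 19.1% had an unadjusted p under 0.05. In these lists 0 of 8, 0 of 8 and 0 of 9 measured genes passed, with 3, 3 and 2 at an unadjusted p under 0.05. The 3 Leydig and the 3 Sertoli genes were each 2 lower and 1 higher, and the 2 erythroid genes were higher. Among represented genes 7.84% were lower and 11.3% higher at that p. Insl3 changed by -0.34 without overlap (adjusted p = 0.0732 in limma) and Amh by -0.05 (adjusted p = 0.749). The peritubular myoid list had 0 of 6, the germ cell list 0 of 3 and the mesonephric duct list 0 of 9 past the test. At an unadjusted p under 0.05 were 2, 1 and 4, all higher but 1 of the mesonephric duct genes. The myoid markers were higher in 6 of 6 (median 0.19), and summed to 4121 to 5188 in vehicle and to 5788, 5764, 5824 and 4769 in DBP replicates 1 to 4. Germ cell markers were higher in 2 of 3 (median 0.06; sums of 869 to 968 in vehicle and 965 to 1091 after DBP), and mesonephric duct markers in 5 of 9 (median 0.11; sums of 2129 to 2220 and 2199 to 2594). The vehicle and DBP sums thus overlapped in each of these 3 lists. Among 7 endothelial markers 1 passed in limma, Plvap, which rose by 0.36 (adjusted p = 0.0471). Of the 7, 4 were higher and 3 lower (median 0.04). Their sums overlapped, with 1637 to 1667 in vehicle and 1653 to 1802 after DBP. The part of cell composition in the falls of Naglu and Arsa was not tested.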

How the data were processed

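Total RNA of 8 fetal testis samples was measured on 1 Affymetrix rat array each. The authors computed the deposited log2 signals by RMA, as the submitters' processing notes record (per the labels); its version is not given in those notes. Of 31099 probe sets, 57 Affymetrix controls were set aside and 31042 tested. Names came from the platform's gene table, with 20826 probe sets of 1 symbol, 436 of several and 9780 of none; probe sets without a single symbol stayed in the test and are not named. The DBP and vehicle groups entered a linear model in limma 3.58.1 under R 4.3.3 (lmFit and eBayes without trend or robust options), 2-sided, adjusted by Benjamini-Hochberg over all tested probe sets, at a threshold of 0.05; intervals are 95% intervals of that model. The procedure was tested on simulated data with the means and spread of these arrays. It called 96 of 100 probe sets changed by 1 on the log2 scale and 64 of 100 changed by 0.5. Of the probe sets made without a change, 6 were called. Changes smaller than 0.5 were not simulated. Tables used Python 3.11.15 and pandas 2.3.3, and figures matplotlib 3.10.9. Every member is named; per-array values were to be given for those past the threshold or with an unadjusted p under 0.05 and for Lamp1, and those of others were added afterwards. From other lists, genes past the threshold or the 2 with the smallest p in each lysosome-related list are named. The members and lists were chosen with earlier results of these data known. Replicate numbers were not used to pair the samples in the main analysis, and whether they pair them was not established.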

Additional observations from a re-analysis of the deposited data

Results flagged for a closer look

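Among the 76 groups of 4 arrays (38 members in each of the vehicle and DBP groups), 2 had an array set apart from the other 3 by more than Dixon's 95% critical value, where chance gives about 1 in 20 groups. Ctss read 7.91 in DBP replicate 4, against 8.27 to 8.31 in the other DBP arrays. Lgmn read 9.34 in vehicle replicate 2, against 9.27 to 9.28 in the other vehicle arrays.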

How the results depend on the processing

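Naglu kept its direction and an adjusted p under 0.05 in all 23 alternatives, with changes of -0.80 to -0.64 and adjusted p of 0.000293 to 0.038. Arsa kept its direction in all 23, with changes of -0.34 to -0.24, and lost its call in 10; no other member was called in any. The alternatives were other filters, scalings, priors, covariates, probe set rules, a looser threshold and fewer arrays. The count of members past the threshold was 1 (Naglu) with arrays shifted to the same median, after quantile normalization, with the replicate block and with the RNA integrity number as covariate. It was 1 to 2 without single arrays. Members with an unadjusted p under 0.05, 3 in the main analysis, numbered 5 (13.5%, beside 21.2% of all tested) among probe sets above the median signal, 6 (15.8%, beside 19.6%) with shifted medians, 9 (23.7%, beside 17.1%) after quantile normalization and 6 (15.8%, beside 18.3%) with a trend and robust prior. They numbered 7 (18.4%, beside 15.9%) with unmoderated t statistics, 8 (21.1%, beside 17.5%) with array weights, 11 (28.9%, beside 15.8%) with DBP replicates 1 and 2 alone, 7 (18.4%, beside 33.6%) with replicates 3 and 4 alone, 6 (15.8%, beside 20.5%) with means over a gene's probe sets and 2 to 8 without single arrays. The members' share was above that of all tested in 6 of 22 alternatives, among them those without DBP replicate 3 (15.8% beside 14.5%) and without DBP replicate 4 (21.1% beside 16.7%), and below it in 16. The member median was 0.010 with shifted medians, 0.011 after quantile normalization and 0.020 with DBP replicates 1 and 2, beside -0.012. Over all probe sets 331 passed; 74 did with unmoderated t statistics, 175 with the replicate block, 577 with DBP replicates 1 and 2, 4129 with replicates 3 and 4, 820 at an adjusted p under 0.1 and 82 to 606 without single arrays. Same-numbered vehicle and DBP arrays deviated together with correlations of 0.108, -0.076, 0.097 and -0.021, so the block rests on a shared number only.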

Other observations

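The chromosomal neighbours of the called members were looked up in RefSeq's gene order (GRCr8) after the members' values were seen. Next to Naglu lies Hsd17b1, an estradiol-forming dehydrogenase gene, which read 5.29, 5.39, 5.61 and 5.45 in vehicle and 5.25, 4.98, 5.22 and 4.89 after DBP. Its groups did not overlap, but the change of -0.35 ± 0.097 (SE) did not pass in limma (adjusted p = 0.118), and its signal was below the median of all probe sets. Within 4 genes on either side of Naglu, 7 of 8 neighbours were measured and 0 passed, with 2 at an unadjusted p under 0.05, Hsd17b1 and Stat3. For represented genes the shares were 1.22% and 19.1%. Stat3, a cytokine-activated transcription factor 3 genes away on the other side, had the largest change, -0.45 (adjusted p = 0.205), with overlapping groups and a vehicle SD of 0.27. Between it and Naglu lies Atp6v0a1, a subunit gene of the vacuolar ATPase, at 0.05 (adjusted p = 0.815). Coasy and Mlx, beyond Hsd17b1, changed by -0.14 (adjusted p = 0.28) and -0.01 (adjusted p = 0.923).

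Of the 8 neighbours of Arsa within the same distance, all measured, 0 passed and 2 had an unadjusted p under 0.05. The latter share was 19.1% for represented genes. Syce3, a synaptonemal complex gene, changed by 0.43 (adjusted p = 0.113) and Acr, the sperm protease acrosin, by 0.36 (adjusted p = 0.194). Both were higher in all DBP arrays, without overlap, and dim, with vehicle means of 5.40 and 3.64. Their changes were 0.23 and 0.12 in DBP replicates 1 and 2 and 0.63 and 0.60 in replicates 3 and 4. The genes directly beside Arsa, Mapk8ip2 and Shank3, changed by 0.19 (adjusted p = 0.319) and -0.09 (adjusted p = 0.537).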
